A study of Caenorhabditis elegans with 18 samples.

Results

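Expression of 10 genes of propionate breakdown was followed in Caenorhabditis elegans across 3 genotypes and 2 treatments. The genes were chosen by name from known pathway membership: 5 enzymes of the propionate shunt (acdh-1, ech-6, hach-1, hphd-1 and alh-8), 2 nuclear hormone receptors that regulate it (nhr-10 and nhr-68) and 3 genes of the vitamin B12-dependent route (pcca-1, pccb-1 and mmcm-1). The choice was made with earlier results of these data known. All 10 genes were found by symbol among the 23368 genes of the count table, and all 10 passed the filter on low counts, which left 10981 genes.

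Messenger RNA of whole early adults was sequenced in 6 groups of 3 libraries, 18 in all. The genotypes were the wild-type strain N2 (WT), nhr-45(tm1307) and nhr-178(gk1005), the last 2 carrying mutations in nuclear hormone receptor genes. Within a genotype, 1 group received the solvent DMSO and the other 0.3 µM antimycin A, which blocks complex III of the mitochondrial respiratory chain. All animals were synchronised by an arrest of 18 hours at the first larval stage (L1), and all then ate Escherichia coli HT115, a laboratory food strain, on these plates; before that the strains were kept on E. coli OP50. Each sample held at least 1000 animals. The samples are described as biological triplicates and nothing further is said of separate cultures, so each p-value reflects only the variation among the libraries at hand. The comparisons ask which of the 10 genes respond to inhibition of complex III, whether they differ between each mutant and WT, and whether the mutants respond differently from WT.

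Propionyl-CoA arises from the breakdown of branched-chain amino acids, methionine and odd-chain fatty acids, and propionate is toxic when it builds up. The canonical route carboxylates propionyl-CoA, rearranges it with a B12-dependent mutase and delivers succinyl-CoA to the citric acid cycle. When B12 is scarce, C. elegans turns on the shunt, a beta-oxidation-like series of 5 enzymes in the mitochondrion that ends in acetyl-CoA, and NHR-10 and NHR-68 act together in that induction. acdh-1 is widely used in the worm as a readout of low B12, and its expression is strong in the intestine.

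Levels are given as CPM, the counts of a gene relative to the library's total, scaled between libraries with TMM factors. Differences are log2 fold changes with their standard error (SE) from edgeR's quasi-likelihood test over all genes, and a gene was called when its Benjamini-Hochberg adjusted p was below 0.05. The largest library, WT in DMSO replicate 3, summed to 9488037 counts. The smallest were nhr-45 in antimycin replicate 2, with 1772887, and WT in antimycin replicate 1, with 3143437, called both shallow libraries below. Among the 10 genes the smallest count in any library was 35, for nhr-10. The 3 libraries of nhr-45 in antimycin stood apart on the first principal component (0.472 to 0.537, against -0.203 to -0.0025 for the other 15), which held 42.3% of the variance. Counts did not check the genotypes: in DMSO the gene nhr-45 had 5.88 ± 1.2 CPM in WT and 4.29 ± 1.34 CPM in its own mutant, and in antimycin 7.19 ± 0.799 and 6.31 ± 1.38 CPM (SD, n = 3). The gene nhr-178 had 6 counts over WT and 2 over nhr-178 in DMSO, and 15 and 22 in antimycin. The bases that each allele removes were not used here, and a gene's count does not tell where along it the reads lay.

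No shunt enzyme was called between either mutant and WT in DMSO. In antimycin, 4 of the 5 were lower than in DMSO in each mutant, at 51.9% to 65.9% of the DMSO level, against 8.33% of all genes (nhr-45) and 0.656% (nhr-178), while none was called in WT. The genes are taken in the order of their steps, with positions from the WBcel235 assembly.

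The gene acdh-1 (I:6497436-6499560, plus strand) encodes the acyl-CoA dehydrogenase that opens the shunt by oxidising propionyl-CoA to acrylyl-CoA. Its level in WT was 73.8, 68.9 and 78.8 CPM in DMSO and 57.6, 82.7 and 73.2 CPM in antimycin (replicates 1, 2 and 3 here and below). In nhr-45 it was 84, 70.2 and 82.7 CPM in DMSO and 51, 53.8 and 40.1 CPM in antimycin, and in nhr-178 it was 83.8, 69 and 90.3 CPM and 45, 44.2 and 50.8 CPM. The 6 mutant libraries in antimycin were the lowest 6 of the 18, and the WT groups overlapped. acdh-1 fell with antimycin by 0.72 ± 0.16 in nhr-45 (SE; edgeR adjusted p = 0.00211), to 60.7% of its DMSO level. It fell by 0.79 ± 0.16 in nhr-178 (adjusted p = 0.00312), to 57.7%. In WT the difference was -0.05 ± 0.16 (95% interval -0.37 to 0.28, adjusted p = 0.943). In a bulk sample, fewer cells that express a gene and less RNA per cell cannot be told apart, here and below.

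The gene ech-6 (III:9751552-9752883, minus strand) encodes the enoyl-CoA hydratase that adds water to acrylyl-CoA. It was at 263, 338 and 315 CPM in WT in DMSO and at 307, 429 and 355 CPM in WT in antimycin. In nhr-45 it went from 332, 335 and 364 CPM to 242, 207 and 214 CPM, and in nhr-178 from 328, 269 and 303 CPM to 182, 212 and 199 CPM. The highest library of all was therefore a WT antimycin library, and the 6 lowest were the mutants in antimycin. ech-6 fell by 0.63 ± 0.13 in nhr-45 (edgeR adjusted p = 0.00105) and by 0.60 ± 0.13 in nhr-178 (adjusted p = 0.00768), to 64.5% and 65.9% of DMSO. In WT the difference was 0.25 ± 0.13 (95% interval -0.02 to 0.53, adjusted p = 0.389). The call in nhr-178 was lost without nhr-178 in DMSO replicate 1 (adjusted p = 0.0662) or nhr-178 in antimycin replicate 1 (0.0628), with a range over the alternatives of 9.8e-04 to 0.0662.

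The gene hach-1 (III:5555450-5557318, plus strand) encodes the hydrolase that frees 3-hydroxypropionate from CoA. It was at 293, 249 and 275 CPM in WT in DMSO and 182, 249 and 209 CPM in WT in antimycin. In nhr-45 the values were 287, 269 and 268 CPM in DMSO against 166, 189 and 134 CPM in antimycin, and in nhr-178 they were 311, 295 and 311 CPM against 148, 169 and 160 CPM. Within each mutant the groups were far apart, and in WT they met only at replicate 2. hach-1 had the smallest adjusted p of the 10 genes in both mutants. It fell by 0.76 ± 0.14 in nhr-45 (edgeR adjusted p = 1.5e-04) and by 0.94 ± 0.13 in nhr-178 (adjusted p = 3.2e-05), to 59.1% and 52% of DMSO. In WT the difference was -0.35 ± 0.13 (95% interval -0.62 to -0.08, unadjusted p = 0.0143, adjusted p = 0.19).

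The gene hphd-1 (II:12994354-12996571, minus strand) encodes the 3-hydroxypropionate dehydrogenase, which makes malonic semialdehyde. It was at 56.8, 53.3 and 76.2 CPM in WT in DMSO and at 62.8, 72 and 49.1 CPM in WT in antimycin. In nhr-45 it was at 71.8, 62.5 and 51.9 CPM in DMSO and 42.6, 39.8 and 34.7 CPM in antimycin, and in nhr-178 at 81.2, 49.4 and 61.9 CPM and 30.8, 31.9 and 36.8 CPM. Its DMSO libraries scattered more widely than those of the earlier steps, yet within each mutant every antimycin library was below every DMSO library. hphd-1 fell by 0.67 ± 0.20 in nhr-45 (edgeR adjusted p = 0.0138) and by 0.95 ± 0.19 in nhr-178 (adjusted p = 0.00345), to 62.7% and 51.9% of DMSO. In WT the difference was -0.02 ± 0.19 (95% interval -0.41 to 0.37, adjusted p = 0.979). The nhr-45 call was lost without nhr-45 in DMSO replicate 1 (adjusted p = 0.0785) or nhr-45 in antimycin replicate 3 (0.0722; range over the alternatives 0.00269 to 0.0785), and the nhr-178 call without nhr-178 in DMSO replicate 1 (0.0577; range 9.2e-05 to 0.0577).

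The gene alh-8 (II:11729055-11731198, plus strand) encodes the malonic semialdehyde dehydrogenase of the last step, which yields acetyl-CoA. It was at 587, 554 and 591 CPM in WT in DMSO and 494, 607 and 567 CPM in WT in antimycin. In nhr-45 it was at 505, 435 and 599 CPM in DMSO and 517, 435 and 477 CPM in antimycin, which overlap. In nhr-178 it was at 583, 513 and 650 CPM in DMSO and 468, 334 and 473 CPM in antimycin, without overlap. alh-8 was the only shunt enzyme called in none of the 3 genotypes. Its differences were -0.05 ± 0.14 in WT (95% interval -0.34 to 0.23), -0.11 ± 0.14 in nhr-45 (-0.39 to 0.18) and -0.46 ± 0.14 in nhr-178 (-0.74 to -0.17), with edgeR adjusted p = 0.919, 0.624 and 0.0912. The nhr-178 value passed with a replicate block (adjusted p = 0.0488; range over the alternatives 0.0488 to 0.421). alh-8 overlaps F13D12.8, whose level was at most 3.04 CPM in any library, and whether counting used strand is not given in the sources used here.

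**Figure D1:**
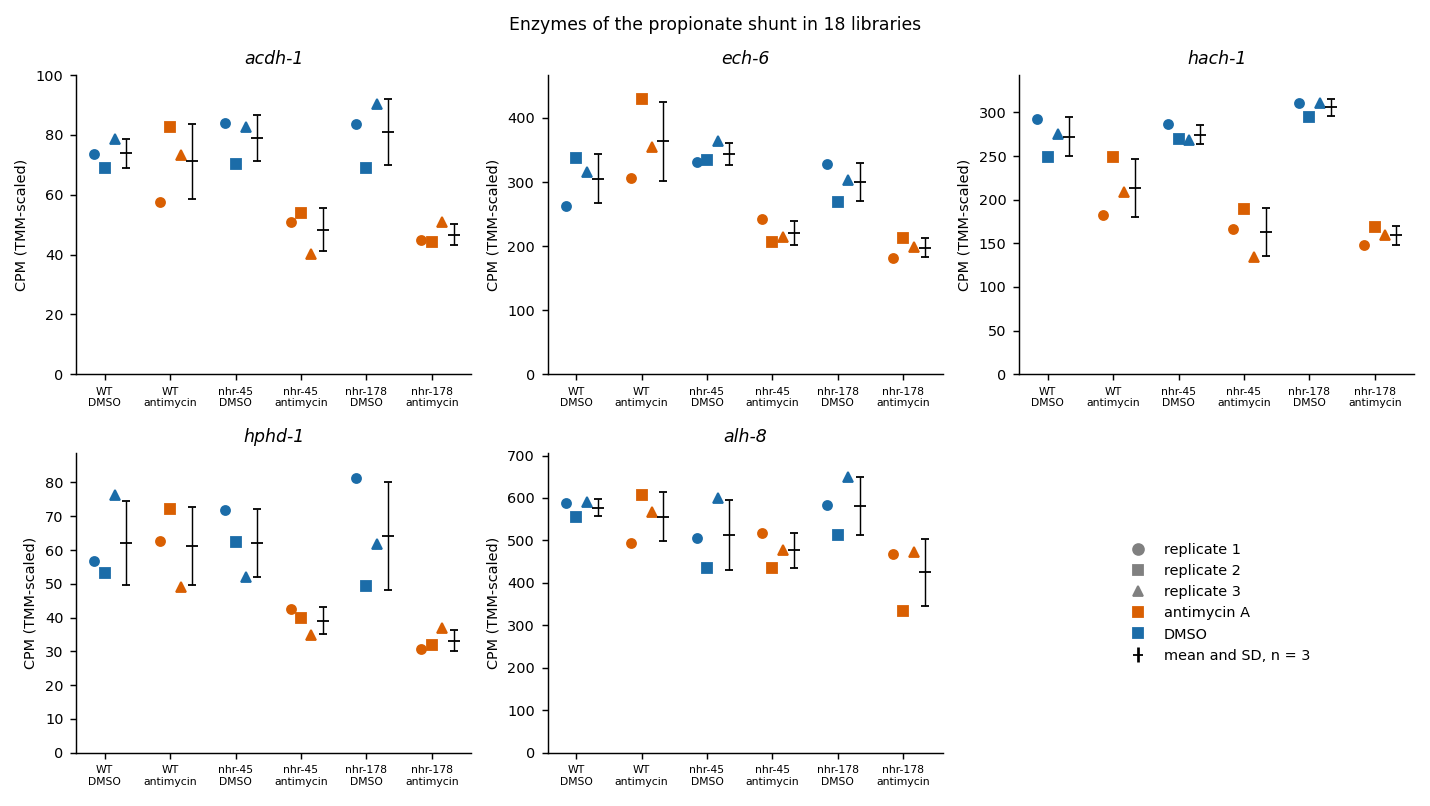
Level of each shunt enzyme (y axis, TMM-scaled CPM) in each of 18 libraries, by group (x axis); blue points are DMSO, orange points antimycin A, symbols mark replicates, and black bars give the mean and SD (n = 3). For acdh-1, ech-6, hach-1 and hphd-1 the mutant antimycin libraries sit below the DMSO libraries of the same mutant, while alh-8 overlaps in nhr-45.

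Counted over the 10 genes, 0 were called for antimycin in WT by edgeR, against 3.01% of all tested genes called in either direction. DESeq2 also called 0, and 1 gene, hach-1, had an unadjusted p under 0.05. In nhr-45, 4 of 10 were called lower and all were shunt enzymes, against 8.33% of all genes called lower. In nhr-178 the same 4 were called lower, against 0.656% of all genes. The median log2 difference of the 5 shunt enzymes was -0.05 in WT, -0.67 in nhr-45 and -0.79 in nhr-178, where the median of all genes was 0.01, 0.00 and 0.00. Every antimycin library was below every DMSO library for 0 of the 10 genes in WT (9.39% of all genes), 4 in nhr-45 (14.9%) and 7 in nhr-178 (8.19%). The 3 within-genotype comparisons share no library. Without nhr-178 in DMSO replicate 1 the count in nhr-178 was 2.

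**Figure D2:**
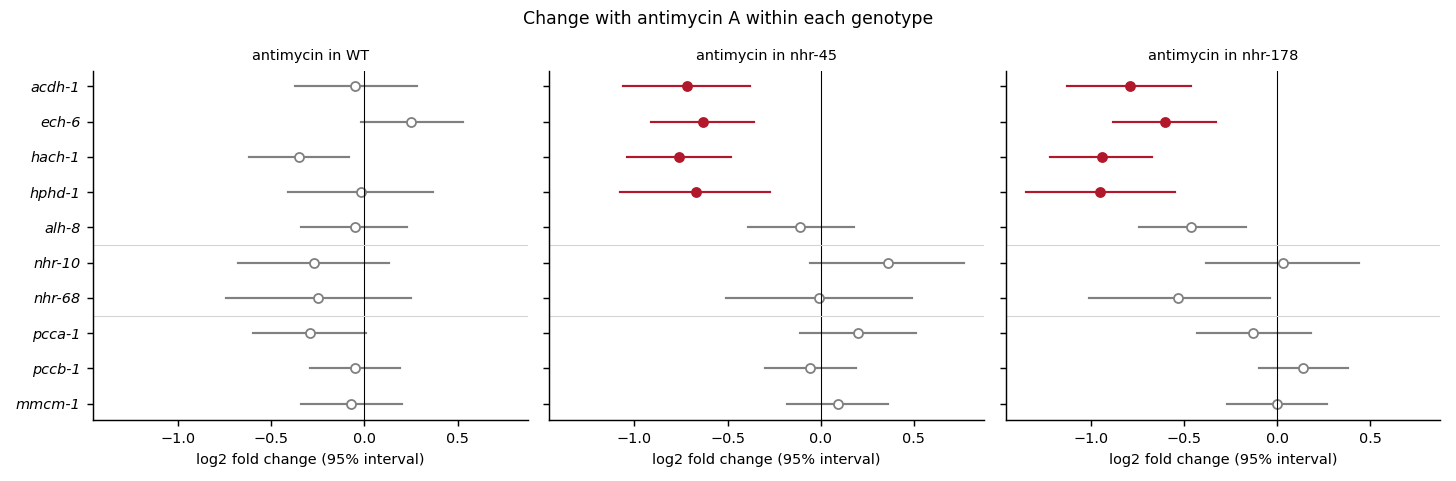
Log2 fold change with antimycin A against DMSO (x axis) for the 10 genes (y axis) in each genotype; bars are 95% intervals, filled red points were called at an adjusted p below 0.05 and open grey points were not. The first 4 shunt enzymes lie between -0.60 and -0.95 in both mutants, and between -0.35 and 0.25 in WT.

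Tissue and stage markers moved between the same groups. The summed level of 11 intestine markers was 2015 to 2200 CPM in DMSO and 3077 to 3617 CPM in antimycin in WT, 2216 to 2319 against 3225 to 3563 CPM in nhr-45, and 2295 to 2501 against 4114 to 4624 CPM in nhr-178. The sum was higher in antimycin in all 3 genotypes, and of the single markers edgeR called 2 of 11 higher in WT, 6 higher and 1 lower in nhr-45, and 3 higher in nhr-178, with median log2 changes of 0.46, 0.57 and 0.19. No intestine marker was at 0 in any group. In nhr-45 the sum of 10 hypodermis markers went from 36.4 to 80.8 CPM in DMSO to 711 to 1492 CPM in antimycin, that of 8 moulting genes from 21 to 29.3 CPM to 259 to 276 CPM, and that of 10 sperm genes from 17.4 to 26.5 CPM to 118 to 175 CPM. Yolk genes (6) went from 5983 to 9302 CPM to 2299 to 3151 CPM, and oocyte genes (9) from 9270 to 10041 CPM to 5828 to 6405 CPM. In nhr-178 the hypodermis sum was 40.6 to 46.6 CPM in DMSO and 41.3 to 64.5 CPM in antimycin, the moulting sum 17.6 to 23.9 and 22.3 to 27.2 CPM, and the sperm sum 0 to 0.606 and 0.429 to 6.44 CPM, with 7 of the 10 sperm genes at 0 in DMSO. The yolk sum there was 5545 to 6852 and 5161 to 6162 CPM, and the oocyte sum 10669 to 12440 and 9544 to 10733 CPM. In WT the hypodermis sum was 45.1 to 52.5 and 53.1 to 107 CPM, the moulting sum 24.4 to 26.9 and 32.2 to 35.7 CPM, and the sperm sum 2.23 to 8.31 and 7.48 to 13.1 CPM. The WT yolk sum was 6767 to 8749 and 4703 to 5073 CPM, and the oocyte sum 9418 to 12381 and 8103 to 8770 CPM. The part of any marker in these results was not tested.

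In DMSO no shunt enzyme was called between a mutant and WT. For nhr-45 against WT, 0 of the 10 genes were called by edgeR (1.54% of all genes in either direction) and 0 by DESeq2, while 2 had an unadjusted p under 0.05. The 5 shunt enzymes lay between -0.17 (alh-8, 95% interval -0.46 to 0.11) and 0.17 (ech-6, -0.10 to 0.44). For nhr-178 against WT, again 0 were called by edgeR (1.15% of all genes). DESeq2 called 1, pccb-1, which was also the 1 gene whose unadjusted p was under 0.05. The shunt enzymes lay between -0.03 (ech-6, 95% interval -0.30 to 0.24) and 0.17 (hach-1, -0.11 to 0.44). For hach-1 all 3 nhr-178 libraries were above the WT libraries, a difference of 0.17 ± 0.13 (adjusted p = 0.762). The share of all genes with such a gap was not counted. These comparisons and those below use the same WT libraries for both mutants, so their values are given side by side only.

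In antimycin 4 shunt enzymes were called lower in nhr-45 than in WT and 3 in nhr-178. In nhr-45, 4 of the 10 genes were called lower (4.37% of all genes), by edgeR as by DESeq2: acdh-1 by -0.58 ± 0.17 (adjusted p = 0.0156), ech-6 by -0.72 ± 0.13 (adjusted p = 3.2e-04), hach-1 by -0.40 ± 0.14 (adjusted p = 0.046) and hphd-1 by -0.65 ± 0.20 (adjusted p = 0.0245). The hach-1 groups overlapped, with nhr-45 at 134 to 189 CPM and WT at 182 to 249 CPM. In nhr-178, 3 were called lower (2.51% of all genes): acdh-1 by -0.62 ± 0.16 (adjusted p = 0.0275), ech-6 by -0.88 ± 0.13 (adjusted p = 1.1e-04) and hphd-1 by -0.88 ± 0.20 (adjusted p = 0.00712). DESeq2 called 4, adding hach-1, which edgeR placed at -0.43 ± 0.13 (adjusted p = 0.0781; 0.0335 by DESeq2, 0.0234 without both shallow libraries, 0.0397 without WT in antimycin replicate 1, range over the alternatives 0.0234 to 0.377). All 5 shunt enzymes were lower in every nhr-178 antimycin library than in every WT antimycin library, alh-8 with -0.39 ± 0.14 (adjusted p = 0.139), against 10.6% of all genes. Markers differed between the same groups: for nhr-45 against WT in antimycin, edgeR called 7 of 9 tested hypodermis, 7 of 7 moulting and 9 of 9 sperm markers higher and 5 of 9 oocyte and 5 of 6 yolk markers lower. Of 11 intestine markers, edgeR called 2 higher and 1 lower there. For nhr-178 against WT in antimycin it called 0 of the hypodermis, moulting, oocyte or yolk markers, 1 sperm marker lower, 1 intestine marker higher and 1 lower, and the adult hypodermis marker col-19 lower, by -0.74. Their part in these differences was not tested.

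Of these calls, ech-6 passed in all 13 alternatives for each mutant (adjusted p 7.3e-06 to 0.00476 in nhr-45 and 2.2e-08 to 0.00198 in nhr-178). The other calls depended on single libraries, above all on replicate 2 of WT in antimycin, which had the highest value of its group for all 5 shunt enzymes. Without that library, 1 of the 10 genes was called in either mutant. In nhr-45, acdh-1 had an adjusted p of 0.0902 without it and 0.113 without nhr-45 in antimycin replicate 3 (range over the alternatives 0.00498 to 0.113), which also left 1 call. hphd-1 had 0.121 without it, 0.0533 and 0.114 without nhr-45 in antimycin replicates 2 and 3, and 0.0974 without both shallow libraries (range 0.00582 to 0.121). hach-1 was lost in 7 of 13 alternatives, at 0.221 and 0.067 without WT in antimycin replicates 2 and 3, 0.087 and 0.253 without nhr-45 in antimycin replicates 1 and 3, 0.0671 with size factors, 0.0836 with the stricter filter and 0.115 with the compared groups alone (range 0.00945 to 0.253). In nhr-178, acdh-1 had 0.184 and 0.0838 without WT in antimycin replicates 2 and 3. Leaving out replicates 1, 2 and 3 of nhr-178 in antimycin gave 0.0971, 0.098 and 0.0559 (range 0.00515 to 0.184). hphd-1 had 0.0681 without WT in antimycin replicate 2 (range 3.0e-04 to 0.0681).

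**Figure D3:**
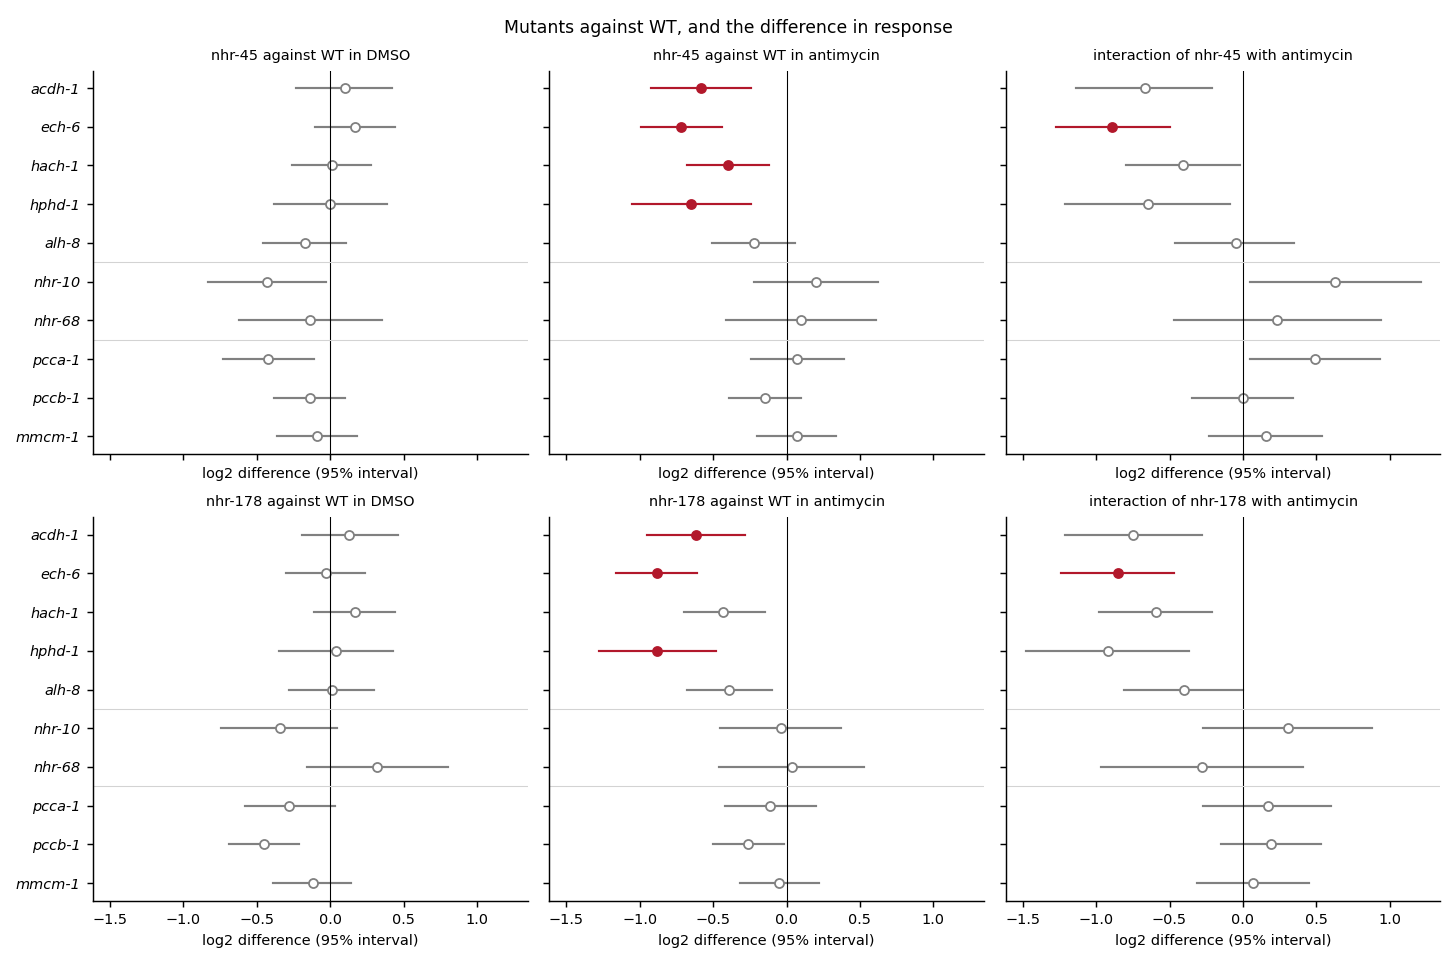
Log2 difference (x axis) of the 10 genes (y axis) between each mutant and WT in DMSO (left) and in antimycin A (middle), and the interaction of mutant and antimycin (right); bars are 95% intervals, filled red points were called and open grey points were not. No gene is filled in DMSO, 4 and 3 shunt enzymes are filled in antimycin, and ech-6 alone is filled for the interactions.

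The interaction tests a mutant's change with antimycin against the change in WT, and ech-6 was the gene called in both mutants. Its response was more negative by -0.89 ± 0.19 in nhr-45 (95% interval -1.27 to -0.50, edgeR adjusted p = 0.00496), with 1 of 10 genes called lower against 1.29% of all genes. That call held in all 19 alternatives (adjusted p 6.2e-04 to 0.0209). In nhr-178 it was more negative by -0.85 ± 0.19 (95% interval -1.24 to -0.47, adjusted p = 0.045), with 1 of 10 called lower against 0.118% of all genes. The nhr-178 call was lost without any single library of WT or nhr-178 other than WT in antimycin replicate 1 (adjusted p 0.0515 to 0.233 in those 11 fits; range over 19 alternatives 0.00396 to 0.233). DESeq2 also called 1 gene in each interaction. ech-6 is the shunt enzyme whose WT value with antimycin was the highest, at 0.25.

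The other shunt enzymes gave interaction values in the same direction that were not called. In nhr-45 they were -0.67 ± 0.23 for acdh-1, -0.41 ± 0.19 for hach-1, -0.65 ± 0.27 for hphd-1 and -0.05 ± 0.20 for alh-8, with edgeR adjusted p = 0.091, 0.237, 0.187 and 0.931. acdh-1 passed without both shallow libraries (adjusted p = 0.0445) and without WT in antimycin replicate 1 (0.0407; range over the alternatives 0.0407 to 0.222). In nhr-178 they were -0.75 ± 0.23 for acdh-1, -0.59 ± 0.19 for hach-1, -0.92 ± 0.27 for hphd-1 and -0.40 ± 0.20 for alh-8, with adjusted p = 0.24, 0.294, 0.207 and 0.613. So for acdh-1, hach-1 and hphd-1, a fall called in a mutant and not in WT is not by itself a difference between the genotypes.

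The receptor genes were called in none of the 9 comparisons. nhr-10 (III:7112295-7115438, minus strand) and nhr-68 (V:11573440-11575709, plus strand) encode nuclear hormone receptors that, with NHR-10 upstream of nhr-68, switch on the shunt when propionate persists. nhr-10 was at 18.6, 22.1 and 14.7 CPM in WT in DMSO and 13.7, 16.8 and 15.1 CPM in antimycin. It was at 12.1, 13.9 and 15.4 CPM in DMSO and 15.9, 18.8 and 18.5 CPM in antimycin in nhr-45, and between 14.1 and 15.2 CPM in all 6 nhr-178 libraries. In nhr-45 every antimycin library was higher than every DMSO library, while those of WT overlapped. How many of all genes had such a gap upwards was not counted. The difference with antimycin was -0.27 ± 0.20 in WT, 0.36 ± 0.20 in nhr-45 (95% interval -0.06 to 0.77) and 0.03 ± 0.20 in nhr-178, with edgeR adjusted p = 0.568, 0.211 and 0.983. The interaction of nhr-45 with antimycin was 0.63 ± 0.28 for nhr-10 (unadjusted p = 0.0335, adjusted p = 0.219). For nhr-45 against WT in DMSO, nhr-10 had -0.43 ± 0.19 (unadjusted p = 0.0364, adjusted p = 0.409).

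nhr-68 was at 26.1, 34.6 and 24.6 CPM in WT in DMSO and 18.9, 27.5 and 24.7 CPM in antimycin. In nhr-45 it was at 32.4, 26.8 and 17.5 CPM and 30.6, 31.2 and 16.3 CPM, a wide scatter in both groups. In nhr-178 it was at 32.3, 35.9 and 37.9 CPM in DMSO and 20.9, 30.4 and 21.9 CPM in antimycin, without overlap (8.19% of all genes in that direction). The difference with antimycin was -0.25 ± 0.24 in WT, -0.01 ± 0.24 in nhr-45 (95% interval -0.51 to 0.49) and -0.53 ± 0.24 in nhr-178 (-1.01 to -0.04), with edgeR adjusted p = 0.708, 0.978 and 0.333. The nhr-178 value had an unadjusted p of 0.0335.

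The B12-dependent route had no gene called for antimycin in any genotype. pcca-1 (X:7657542-7660986, minus strand) and pccb-1 (X:3089549-3092437, plus strand) encode the subunits of propionyl-CoA carboxylase, alpha and beta, which open the route. pcca-1 was at 123, 138 and 157 CPM in WT in DMSO and 104, 95.3 and 140 CPM in antimycin. It was at 122, 102 and 88 CPM and 116, 126 and 118 CPM in nhr-45, and in nhr-178 it averaged 115 ± 0.602 CPM in DMSO (SD, n = 3) against 96.3, 110 and 110 CPM in antimycin. The highest library was of WT in DMSO, and only in nhr-178 did the treatments not overlap (8.19% of all genes in that direction). With antimycin pcca-1 differed by -0.29 ± 0.15 in WT (95% interval -0.60 to 0.01), 0.20 ± 0.15 in nhr-45 (-0.11 to 0.51) and -0.13 ± 0.15 in nhr-178 (-0.43 to 0.18), with edgeR adjusted p = 0.373, 0.361 and 0.821. Every nhr-45 library in DMSO and every nhr-178 library in DMSO was below every WT library in DMSO, by -0.42 ± 0.15 (adjusted p = 0.232) and -0.28 ± 0.15 (adjusted p = 0.549). Both use the same WT libraries, and the share of all genes with such a gap in DMSO was not counted.

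pccb-1 was at 490, 444 and 424 CPM in WT in DMSO and 410, 440 and 459 CPM in antimycin. In nhr-45 it was at 440, 436 and 353 CPM and 391, 403 and 388 CPM, and in nhr-178 at 320, 307 and 367 CPM and 335, 369 and 390 CPM. The nhr-178 libraries were below those of WT at both treatments. In antimycin this held for 10.6% of all genes, and the share in DMSO was not counted. The difference between nhr-178 and WT was -0.45 ± 0.12 in DMSO (95% interval -0.69 to -0.21, unadjusted p = 7.5e-04, edgeR adjusted p = 0.0606), and -0.26 ± 0.12 in antimycin (adjusted p = 0.277). DESeq2 called it in DMSO (adjusted p = 0.0098), as did edgeR with the stricter filter (0.0499), and the adjusted p spanned 0.0098 to 0.276 over the alternatives. With antimycin, pccb-1 differed by -0.05 ± 0.12 in WT, -0.06 ± 0.12 in nhr-45 and 0.14 ± 0.12 in nhr-178 (adjusted p = 0.903, 0.767 and 0.728). The gene overlaps wrt-2, which was at 5.49 to 10.2 CPM in nhr-45 in antimycin and at most 1.43 CPM elsewhere. How reads of the shared stretch were counted is not given in the sources used here. The part of this overlap in the pccb-1 values was not tested.

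mmcm-1 (III:3903185-3907687, minus strand) encodes methylmalonyl-CoA mutase, the B12-dependent enzyme itself. It was the steadiest of the 10, at 103, 104 and 105 CPM in WT in DMSO and between 87.8 and 112 CPM over all 18 libraries. Its difference with antimycin was -0.07 ± 0.13 in WT (95% interval -0.34 to 0.20), 0.09 ± 0.13 in nhr-45 (-0.18 to 0.36) and 0.00 ± 0.13 in nhr-178 (-0.27 to 0.27), with edgeR adjusted p = 0.879, 0.67 and 1. In both mutants these intervals end short of the changes of the 4 called shunt enzymes.

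**Figure D4:**
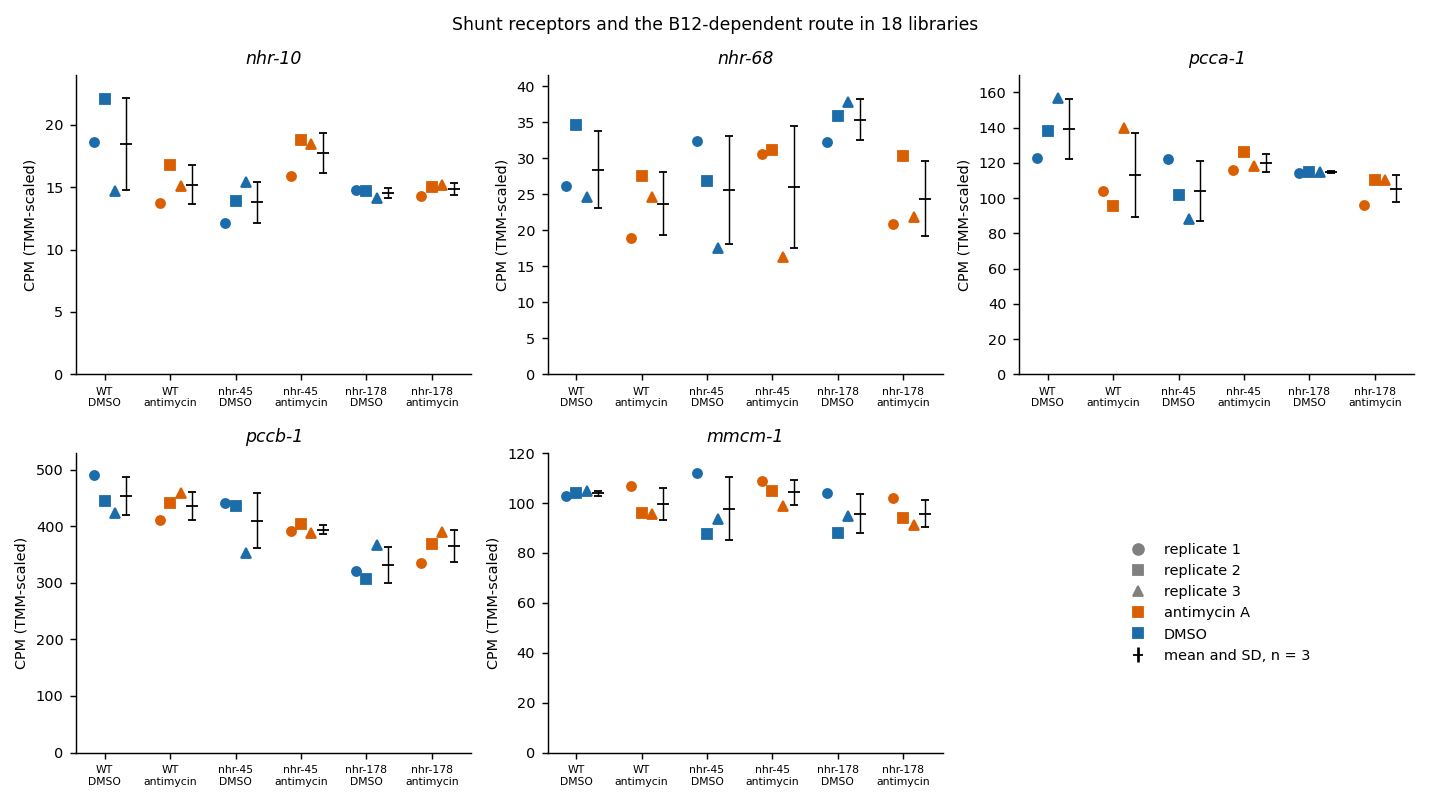
Level (y axis, TMM-scaled CPM) of the receptor genes nhr-10 and nhr-68 and of pcca-1, pccb-1 and mmcm-1 in each of 18 libraries, by group (x axis); blue points are DMSO, orange points antimycin A, symbols mark replicates, and black bars give the mean and SD (n = 3). mmcm-1 stays between 87.8 and 112 CPM, and pccb-1 is lower in nhr-178 than in WT in every library.

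Levels can be set between genes only per length, and in WT in DMSO they ran from 326 to 12 CPM per kb. Per kb of exon, alh-8 was at 326 ± 11.5 CPM, ech-6 at 301 ± 37.8, pccb-1 at 243 ± 18 and hach-1 at 182 ± 15 CPM per kb (SD, n = 3). pcca-1 was at 57 ± 6.88, acdh-1 at 44 ± 2.95, mmcm-1 at 42.1 ± 0.365 and hphd-1 at 37.4 ± 7.41 CPM per kb. The receptor genes were the lowest, nhr-68 at 21.3 ± 4.04 and nhr-10 at 12 ± 2.4 CPM per kb. The libraries of alh-8 and ech-6, ech-6 and pccb-1, acdh-1 and mmcm-1, and mmcm-1 and hphd-1 overlapped, so the order of those neighbours is not set by these values. The order was the same per kb of coding sequence. The shunt transcripts were thus unequal per kb in this group, with alh-8, ech-6 and hach-1 above acdh-1 and hphd-1. The subunits of the carboxylase were also unequal, with pccb-1 above pcca-1.

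Summed per kb, the 5 shunt enzymes were at 891 ± 28.4 CPM per kb in WT in DMSO and 894 ± 125 in antimycin (SD, n = 3). The sum was 896 ± 60.6 in nhr-45 in DMSO and 648 ± 43.9 in antimycin, and 915 ± 80.2 and 588 ± 33.5 in nhr-178. That of the 3 B12-route genes was 342 ± 11.4 and 321 ± 19.1 CPM per kb in WT, 302 ± 35.1 and 303 ± 7.09 in nhr-45, and 264 ± 17.5 and 278 ± 15.7 in nhr-178. The ratio of shunt to B12-route transcript was 2.44, 2.63 and 2.75 in the WT libraries in DMSO and 2.54, 3.26 and 2.58 in antimycin. It was 2.71, 2.68 and 3.63 against 2.31, 2.03 and 2.07 in nhr-45, and 3.68, 3.32 and 3.42 against 2.26, 1.98 and 2.14 in nhr-178. In each mutant every antimycin ratio was below every DMSO ratio, and the WT ratios overlapped. In DMSO every nhr-178 ratio was above every WT ratio. The B12-route sum of nhr-178 was lower than that of WT in DMSO, at 264 against 342 CPM per kb on average. These sums describe transcript, not flux, and no test was made of them.

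**Figure D5:**
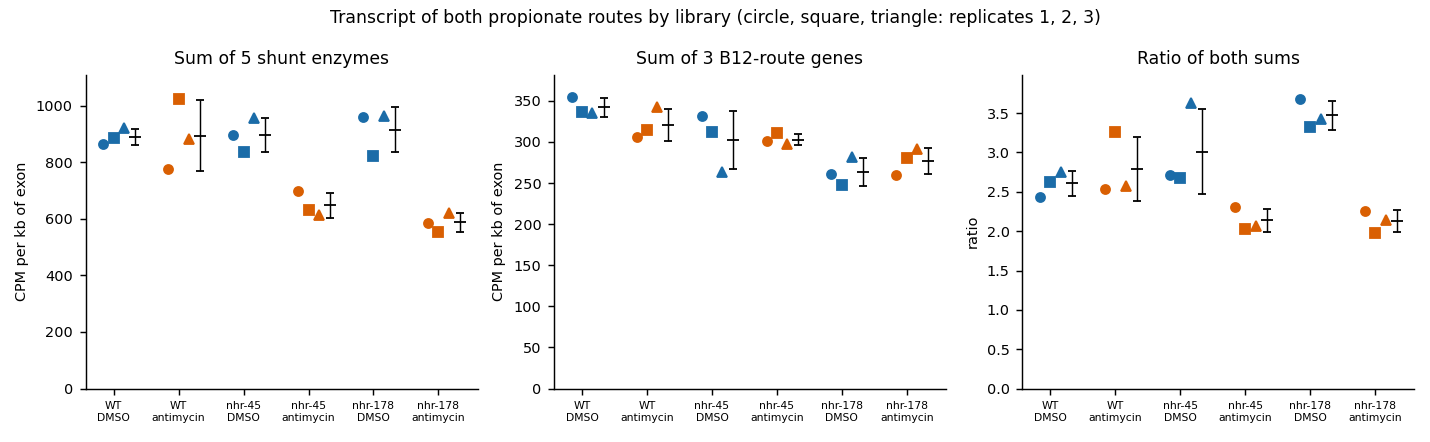
Summed level per kb of exon of the 5 shunt enzymes (left, CPM per kb), of the 3 B12-route genes (middle, CPM per kb) and their ratio (right) in each of 18 libraries, by group (x axis); blue points are DMSO, orange points antimycin A, symbols mark replicates, and black bars give the mean and SD (n = 3). The shunt sum is lower in antimycin in both mutants, at 648 and 588 CPM per kb on average, while the B12-route sum stays between means of 264 and 342 CPM per kb.

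The shunt enzymes also had similar profiles over the 6 groups, alh-8 less closely than the others. Likeness was measured as the root mean square log2 difference between group means centred over the groups, among the 7527 genes whose mean was 5 CPM or more. The nearest gene to acdh-1 was hphd-1 (0.09, rank 1), with hach-1 at rank 3 (0.11), ech-6 at rank 15 (0.14) and alh-8 at rank 155 (0.20), where a gene flat over the groups would lie at 0.33. The other members were no nearer than nhr-68 at rank 1657 (0.28), and pcca-1, pccb-1 and mmcm-1 (0.34 each) and nhr-10 (0.40, rank 4878) lay farther from acdh-1 than the flat profile. Among genes outside the 10, the nearest to acdh-1 were F27C1.6 (0.10), skr-7 and F39B2.5 (0.11 each), and R03G8.6 and gbas-1 (0.12 each). Those nearest to the mean of the shunt enzymes were F27C1.6 (0.09) and reps-1, F39B2.5, rpc-1 and tag-322 (0.10 each). Of these, skr-7 (-0.72 ± 0.23, edgeR adjusted p = 0.0219) and gbas-1 (-1.07 ± 0.37, adjusted p = 0.0354) were called for antimycin in nhr-45, and none in WT or nhr-178. The genes compared share the same 18 libraries.

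The other genes around the routes were read from lists of neighbouring pathways. The remaining genes of the B12 route, the epimerase gene mce-1 and the cobalamin-handling genes mmaa-1, mmab-1 and cblc-1, were called in none of the 9 comparisons by edgeR or DESeq2, and 1 value had an unadjusted p under 0.05, in nhr-178 against WT in DMSO. mce-1 was at 10.2 to 13.3 CPM and mmaa-1 at 59.7 to 75.9 CPM as group means. Of 4 genes by which succinyl-CoA enters the citric acid cycle, edgeR and DESeq2 called none in any comparison, and 1 had an unadjusted p under 0.05 in each of the 3 genotypes with antimycin.

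The other B12-dependent pathway of the worm is the methionine cycle, in which metr-1 encodes methionine synthase, mtrr-1 its reductase and sams-1 the main S-adenosylmethionine synthetase. None of these 3 was called in any of the 9 comparisons. With antimycin in nhr-45 they had -0.36 ± 0.15, -0.53 ± 0.22 and 0.14 ± 0.12, with edgeR adjusted p = 0.0846, 0.0768 and 0.423. Of 14 tested genes of the cycle and of B12 transport, 0 were called in WT by edgeR or by DESeq2 (3 had an unadjusted p under 0.05), and 3 were called higher and 0 lower in nhr-45, against 15.2% of all genes called higher. cth-1, a cystathionine gamma-lyase of the transsulfuration branch, rose by 1.90 ± 0.26 (adjusted p = 5.0e-06), from 16.1 ± 4.81 to 58.7 ± 12.2 CPM. cbs-1, a cystathionine beta-synthase, rose by 1.03 ± 0.26 (adjusted p = 0.00431). sams-5 rose by 2.77 ± 0.72 (adjusted p = 0.00708), on 9 and 53 counts, and was not called without nhr-45 in DMSO replicate 1 (adjusted p = 0.0522; range over the alternatives 0.0037 to 0.0522). Against WT in antimycin, where 10.7% of all genes were higher in nhr-45, the same 3 genes were called higher. There cth-1 was higher by 2.39 ± 0.28 (edgeR adjusted p = 2.7e-07). cbs-1 was higher by 0.76 ± 0.26 (adjusted p = 0.046), a call lost in 8 of 13 alternatives (range 0.0279 to 0.227). sams-5 had an adjusted p of 0.00139 on 53 counts against 3, and was kept in all 12 alternatives. The interactions were 2.44 ± 0.38 for cth-1 (adjusted p = 1.5e-04) and 1.60 ± 0.36 for cbs-1 (adjusted p = 0.00749), against 3.39% of all genes called higher.

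In nhr-178, edgeR called 0 of these 14 higher and 1 lower with antimycin, against 0.656% of all genes called lower, and DESeq2 called 2, adding mthf-1 (-0.45 ± 0.13 and adjusted p = 0.0582 by edgeR), which overlaps C06A8.6. The edgeR call was pmp-5, an ABC transporter gene related to the human lysosomal B12 exporter ABCD4, by 0.72 ± 0.19 (edgeR adjusted p = 0.0332), from 59.6 ± 12.6 to 36.1 ± 2.33 CPM. The call was lost without nhr-178 in DMSO replicates 1 or 3 or any nhr-178 library in antimycin (range of the adjusted p over the alternatives 0.00936 to 0.275). The WT levels of pmp-5 were 55.9 ± 6.15 CPM without and 78.4 ± 17.4 CPM with antimycin, and nhr-178 was lower than WT in antimycin by -1.12 ± 0.19 (adjusted p = 4.2e-04), in all 13 alternatives. The interaction was -1.20 ± 0.26 (adjusted p = 0.045), lost in 9 of 19 alternatives, each of which left out 1 library other than WT in antimycin replicates 1 and 3 and nhr-178 in DMSO replicate 2 (range 0.00266 to 0.23). cth-2, another cystathionine gamma-lyase gene, was lower in nhr-178 than in WT by -0.93 ± 0.12 in DMSO (adjusted p = 2.8e-05) and -1.08 ± 0.12 in antimycin (adjusted p = 1.4e-06), and overlaps ZK1127.3.

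Among 14 tested genes of branched-chain amino acid breakdown, a source of propionyl-CoA, 0 were called by edgeR or DESeq2 in WT or in nhr-178, where 4 and 1 had an unadjusted p under 0.05. In nhr-45, 1 rose and 2 fell, against 15.2% of all genes called higher and 8.33% called lower: the aminotransferase gene bcat-1 by 0.42 ± 0.13 (adjusted p = 0.0169), and the thiolase genes acaa-2 by -0.39 ± 0.12 (adjusted p = 0.015) and kat-1 by -0.55 ± 0.19 (adjusted p = 0.0332). All 3 calls depended on single libraries. bcat-1 was lost without nhr-45 in DMSO replicate 2, without nhr-45 in antimycin replicate 3 and with no filter (range of the adjusted p over the alternatives 0.0027 to 0.0941), and acaa-2 without nhr-45 in DMSO replicate 1 or nhr-45 in antimycin replicate 3 (0.0119 to 0.0835). kat-1 was lost without nhr-45 in DMSO replicates 2 or 3, without any nhr-45 library in antimycin, without both shallow libraries and with the stricter filter (0.0139 to 0.114). Against WT in antimycin, edgeR called bcat-1 higher in nhr-45 (adjusted p = 0.0025, kept in all 13 alternatives), where 10.7% of all genes were higher. It called kat-1 lower in nhr-45 (adjusted p = 0.0316, lost in 6 of 13 alternatives), where 4.37% of all genes were lower. In nhr-178, kat-1 was lower than in WT in antimycin by -1.14 ± 0.19 (adjusted p = 2.8e-04, kept in all 13 alternatives), at 35.4 ± 10.7 against 78.4 ± 16.1 CPM. There 2.51% of all genes were called lower.

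Another acyl-CoA dehydrogenase gene, acdh-2, which is closely related to acdh-1, was called with antimycin in every genotype. It was at 7.52 ± 1.39 CPM in WT in DMSO and 2.87 ± 0.849 CPM in antimycin, 6.59 ± 1.17 and 2.35 ± 0.174 CPM in nhr-45, and 14.7 ± 2.84 and 4.07 ± 0.357 CPM in nhr-178 (SD, n = 3). acdh-2 fell with antimycin in all 3 genotypes, with log2 changes of -1.41 ± 0.30 in WT (edgeR adjusted p = 0.00653), -1.43 ± 0.32 in nhr-45 (adjusted p = 0.00184) and -1.84 ± 0.27 in nhr-178 (adjusted p = 5.9e-05). The WT call was lost without WT in antimycin replicate 3 (adjusted p = 0.1; range over the alternatives 0.00381 to 0.1). Its interactions were -0.02 ± 0.43 in nhr-45 (adjusted p = 0.988) and -0.43 ± 0.42 in nhr-178 (adjusted p = 0.878). In DMSO acdh-2 was at 12.1 to 17.7 CPM in nhr-178 and at 5.93 to 8.51 CPM in WT. Between these groups edgeR called 0 of 9 tested acyl-CoA dehydrogenases outside the 10 genes, and DESeq2 called 1. acdh-2 overlaps ins-13, and how the counting treated reads that fit both acdh-1 and acdh-2 is not given in the sources used here. Among 9 tested acyl-CoA dehydrogenases outside the 10 genes, edgeR called 1 lower with antimycin in WT, where 3.01% of all genes were called in either direction. It called 1 lower in nhr-178 (0.656% of all genes), and 2 lower and 1 higher in nhr-45 (8.33% and 15.2%). Antimycin in nhr-45 also lowered acdh-12, which overlaps E04F6.4, by 0.70 ± 0.22 (adjusted p = 0.0193, range over the alternatives 0.0121 to 0.0829). That call was lost without nhr-45 in DMSO replicate 1, nhr-45 in antimycin replicates 2 or 3, or both shallow libraries. acdh-8 rose in nhr-45 by 2.34 ± 0.66 (adjusted p = 0.0111) on 31 and 147 counts, a call lost when nhr-45 in DMSO replicate 1 was left out and by DESeq2 (range 4.5e-04 to 0.118). Against WT in antimycin, edgeR called acdh-8 higher in nhr-45 (adjusted p = 1.7e-04, kept in all 12 alternatives), on 147 counts against 5. There 10.7% of all genes were higher.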

How the data were processed

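The authors deposited 1 table of raw read counts, with 18 library columns of whole numbers whose totals differ. Per the submitters' processing notes, Bowtie2, RSEM, DESeq2 and R 3.6.3 were used, with no role stated. The sources used here do not give the build, the annotation, the use of strand or the treatment of reads that fit several genes. Symbols (23161 genes) and WBcel235 positions (23363 genes) were joined by gene identifier and may differ from the authors' annotation.

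Counts were tested with edgeR 4.0.16 in R 4.3.3 (glmQLFit and glmQLFTest, two-sided) with TMM scaling and filterByExpr by group, in 1 fit of all 18 libraries that gave each group a mean and left 12 residual degrees of freedom. Adjusted p-values are Benjamini-Hochberg values over 10981 genes within each of 9 comparisons. The biological coefficient of variation was 17.1%. An SE is the log2 change over the square root of the F statistic. DESeq2 1.42.0, size factors, other filters, other sample sets and leaving out libraries were the alternatives, and the steps were tested on simulated data. Replicate pairs had a chi-square over degrees of freedom between 5.64 and 18.6, and none was treated as a duplicate. All 10 members, every called gene of the pathway lists, acdh-2, mce-1, mmaa-1, metr-1, mtrr-1 and sams-1, and the 5 genes nearest each profile could be named. The opt-2 marker had no match in the table. The members and lists were chosen with earlier results of these data known.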

Additional observations from a re-analysis of the deposited data

Results flagged for a closer look

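For ech-6, the interaction test called a difference from WT in the response to antimycin in each mutant. In nhr-45 the interaction was -0.89 on the log2 scale (SE 0.19, edgeR adjusted p = 0.00496, kept in all 19 alternatives), from 344 ± 17.7 CPM in DMSO to 221 ± 18.6 CPM in antimycin (SD, n = 3). In nhr-178 it was -0.85 (SE 0.19, adjusted p = 0.045, lost in 11 of 19 alternatives with 0.0515 to 0.233), from 300 ± 29.5 to 198 ± 15 CPM. In WT ech-6 was at 306 ± 38.4 and 364 ± 61.4 CPM, and all 3 WT antimycin libraries were above all 6 mutant antimycin libraries. For nhr-178 alone, 10.6% of all genes had such a gap in antimycin. The share for nhr-45, or for both mutants together, was not counted. Both interactions use the same WT libraries.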

How the results depend on the processing

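Of 1290 single values of the 10 genes under alternatives, 1244 kept direction and side of the threshold, 35 were no longer past it, 8 came past it and 3 reversed. Of 73 uncalled values, 20 changed sign in some alternative by less than 1 SE. The reversed values were uncalled: leaving out single libraries gave -0.23 to 0.25 for nhr-68 with antimycin in nhr-45, -0.16 to 0.2 for hphd-1 in nhr-178 against WT in DMSO, and -0.23 to 0.07 for pcca-1 in nhr-178 against WT in antimycin. The number of the 10 genes called, leaving out single libraries, was 2 to 4 for antimycin in nhr-178, 1 to 4 for either mutant against WT in antimycin, 1 to 2 for the nhr-45 interaction and 0 to 1 for the nhr-178 interaction. It was 1 by DESeq2 and 1 with the stricter filter for nhr-178 against WT in DMSO (0 by the test reported), and 2 without both shallow libraries for the nhr-45 interaction. The cause was not tested.

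Deviations of same-numbered replicates had correlations of -0.0858 to 0.0782 over 21 pairs, and 9 pairs were best with their own number. Low correlations over all genes cannot exclude shared handling, so these values do not settle whether numbers pair samples. With a replicate block 0, 4 and 5 of the 10 genes were called for antimycin in WT, nhr-45 and nhr-178, where alh-8 was added, and the other counts of the 10 did not move.

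Over all genes, nhr-45 against WT in DMSO gave 169 calls, 262 with no filter and 95 with the compared groups alone. nhr-178 against WT in DMSO gave 126, 198 by DESeq2 and 219 with no filter. nhr-45 against WT in antimycin gave 1654, and 1006 with the stricter filter. The nhr-178 interaction gave 29, 72 by DESeq2 and 103 with no filter. Leaving out single libraries gave 9 to 41 for the nhr-178 interaction and 63 to 94 for nhr-178 against WT in DMSO. For antimycin in WT it gave 173 to 314, against 330 with all libraries. The shares of all genes given above move with these counts. At this depth the SE with antimycin was 0.20 for nhr-10 and 0.24 for nhr-68. Differences larger than the SE also went uncalled, such as nhr-68 at -0.53 with antimycin in nhr-178 (edgeR adjusted p = 0.333). The lack of a call therefore does not exclude differences of that size in these genes.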
